A study of Mus musculus with 20 samples.

Results

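A set of 80 CpGs on mouse chromosome 17 read as unmethylated in every library of 3 months and as partly or highly methylated, at the median, in 11 of 12 libraries of 13 months. They were chosen by their measured levels: listed at both ages, at most 5% methylation in all 8 libraries of 3 months, and a mean of at least 20% over the 12 libraries of 13 months. The rule was applied to chromosome 17 and kept 80 of its 52926 CpGs listed at both ages. In all, 1132618 CpGs were listed at both ages, and the same thresholds were also met by 48 CpGs of chromosome 9. Because the rule used the difference between ages, that difference is described here and was not tested.

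Reduced representation bisulfite sequencing, in which an enzyme digest selects CpG-rich fragments, was applied to DNA of a microglia-enriched brain homogenate; microglia are the macrophages of the brain. HEM mice carried a transgene on the X chromosome for full-length human wild-type α-synuclein, driven by the murine Thy-1 promoter, and WT mice were controls without it. The groups were 8 HEM and 4 WT libraries of 13 months and 4 HEM and 4 WT libraries of 3 months, all of the B6D2F1/J background except that the label of HEM replicate 3 of 13 months gives no strain; 3 WT mice of 3 months are stated in the series' design text, whereas 4 libraries carry that label and entered here. The labels do not say whether libraries came from separate animals, and the Thy-1 promoter is mainly active in neurons, whereas the DNA was from a microglia-enriched fraction. The 2 ages were deposited as separate sets, so age and set cannot be told apart.

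Methylation of the cytosine in a CpG is copied to the new strand at cell division, and most CpGs of a mammalian genome outside CpG islands are highly methylated, usually together with their neighbours. Bisulfite turns unmethylated cytosine into uracil, which is read as T, so an unmethylated cytosine and a T in the DNA give the same reading; the files hold percentages and no reads, and in them these cannot be told apart. The B6D2F1/J hybrid has C57BL/6J and DBA/2J parents, and the mm10 reference genome is that of C57BL/6J. How many reads lie behind a percentage is unknown.

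The reference sequence at 1 of the CpGs and beside another is printed, the first to show a methylated neighbour 8 bp away and the second because it holds the CpG at 35552156, whose levels at 13 months were among those closest to the set. Unlike the set, that CpG was at 44.2% in WT replicate 6 and averaged 46.9% at 3 months. Both stretches are promoter windows of RefSeq (GRCm38.p6, the assembly of mm10), and capitals mark bases at which methylation was listed at both ages. The first runs from its first base, the CpG at 29434568 that met the rule, on the plus strand at chr17:29434568-29434867 in front of Gm36199 and inside the lncRNA gene Gm36486. The second lies at chr17:35551878-35552177 on the plus strand, inside Cdsn, which encodes corneodesmosin, a skin adhesion protein, and ends before the CpG at 35552214 that met the rule.
Gm36199: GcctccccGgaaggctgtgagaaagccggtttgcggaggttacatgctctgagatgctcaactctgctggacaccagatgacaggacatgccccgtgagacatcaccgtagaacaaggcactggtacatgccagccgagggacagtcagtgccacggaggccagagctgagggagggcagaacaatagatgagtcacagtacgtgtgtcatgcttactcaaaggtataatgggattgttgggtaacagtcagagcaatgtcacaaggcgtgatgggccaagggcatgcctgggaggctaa
Cdsn: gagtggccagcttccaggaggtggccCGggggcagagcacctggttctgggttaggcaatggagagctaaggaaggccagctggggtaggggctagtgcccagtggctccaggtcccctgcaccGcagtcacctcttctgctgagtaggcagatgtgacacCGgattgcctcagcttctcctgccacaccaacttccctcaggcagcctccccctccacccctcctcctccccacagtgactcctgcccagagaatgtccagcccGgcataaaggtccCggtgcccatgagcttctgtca
In the Gm36199 window the second capital is the CpG at 29434576, 8 bp from the first. At 13 months the first CpG had a lowest value of 39.1%, a median of 51.7% and a highest value of 93.2% in the 8 HEM libraries, and 43.7%, 38.2%, 0% and 97.6% in WT replicates 1, 2, 6 and 7, whereas at 3 months it was at 0% in all 8 libraries. The CpG 8 bp away was at 88.6% to 98.5% in the 12 libraries of 13 months and at 85.7% to 96.5% in the 8 libraries of 3 months. The pair thus differed between libraries at the first base and stayed high at its neighbour.

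In each library the 80 CpGs took mainly a single level, and that level differed between libraries. The classes were near 0 (under 20%), near 40 (20% to 60%) and near 80 (above 60%). The median over the 80 CpGs was 40.6%, 80.3%, 41.7%, 40.3%, 80.7%, 43.4%, 39.2% and 41.7% in HEM replicates 1, 3, 6, 7, 8, 10, 11 and 13 of 13 months. In WT replicates 1, 2, 6 and 7 of 13 months it was 41.0%, 83.5%, 0% and 84.8%, and in each of the 8 libraries of 3 months it was 0%. Thus 6 HEM libraries and WT replicate 1 lay near 40, HEM replicates 3 and 8 and WT replicates 2 and 7 lay near 80, and WT replicate 6 lay with the libraries of 3 months. The HEM and WT libraries of 13 months overlapped.

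**Figure D1:**
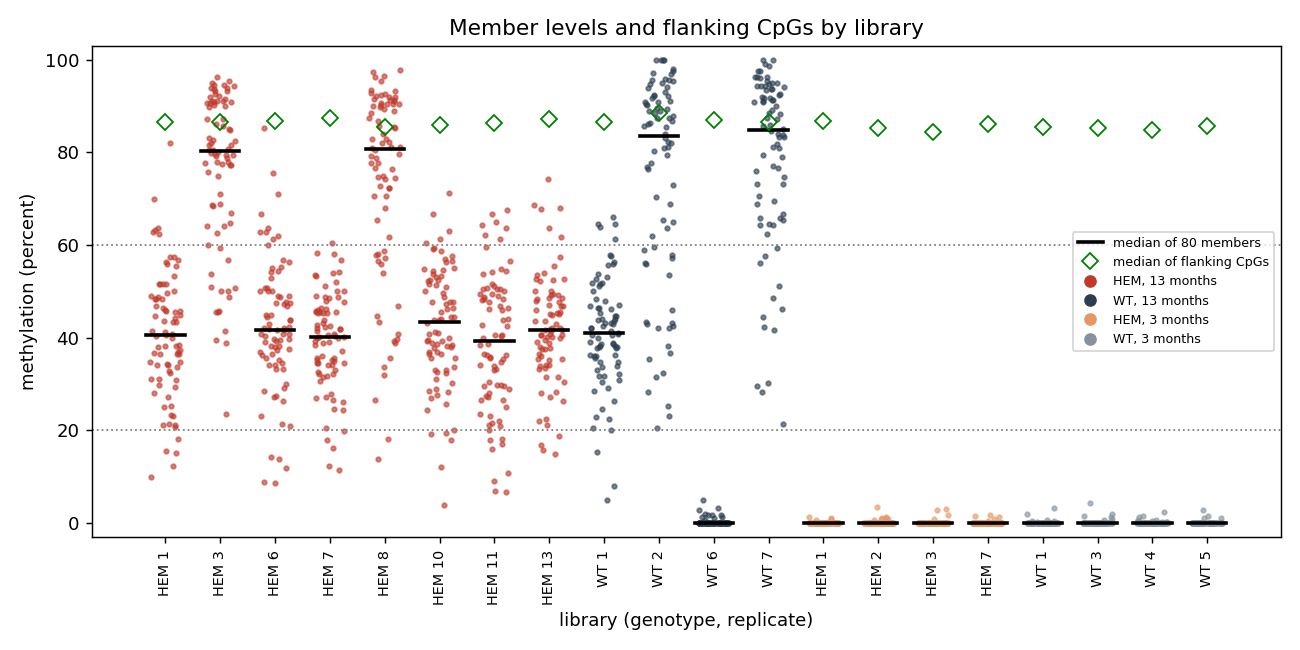
Methylation in percent (vertical axis) of the 80 chromosome 17 CpGs in each of 20 libraries (horizontal axis), with HEM left of WT at 13 months and then at 3 months. Points are CpGs, black bars are medians, green diamonds are medians of the flanking CpGs, and dotted lines mark 20% and 60%. Medians fall at 0%, at 39.2% to 43.4% or at 80.3% to 84.8% at 13 months, while the flanking medians stay between 84.4% and 88.5% in every library.

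The library at 0 was uniform. In WT replicate 6 of 13 months 69 of the 80 CpGs were at exactly 0% and the highest was at 4.88%. Of the 640 values of 3 months 593 were exactly 0%, and 44 CpGs were at 0% in all 8 libraries. In HEM replicate 7, near 40, 74 CpGs were in that class, 5 below and 1 above it, and in WT replicate 1 the counts were 72, 3 and 5. In the libraries near 80 the class held 64 CpGs in HEM replicate 3, 60 in HEM replicate 8, 57 in WT replicate 2 and 67 in WT replicate 7. Over all CpGs, 34 of the 640 values of HEM libraries at 13 months were near 0, 448 near 40 and 158 near 80, and of the 320 values of WT libraries 83 were near 0, 108 near 40 and 129 near 80. Of the 83, 80 came from WT replicate 6 alone. Among HEM libraries only replicate 10 had a value of at most 5%, at 1 CpG. CpGs of a library mainly shared a level, so these values are not separate observations of a genotype.

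**Figure D2:**
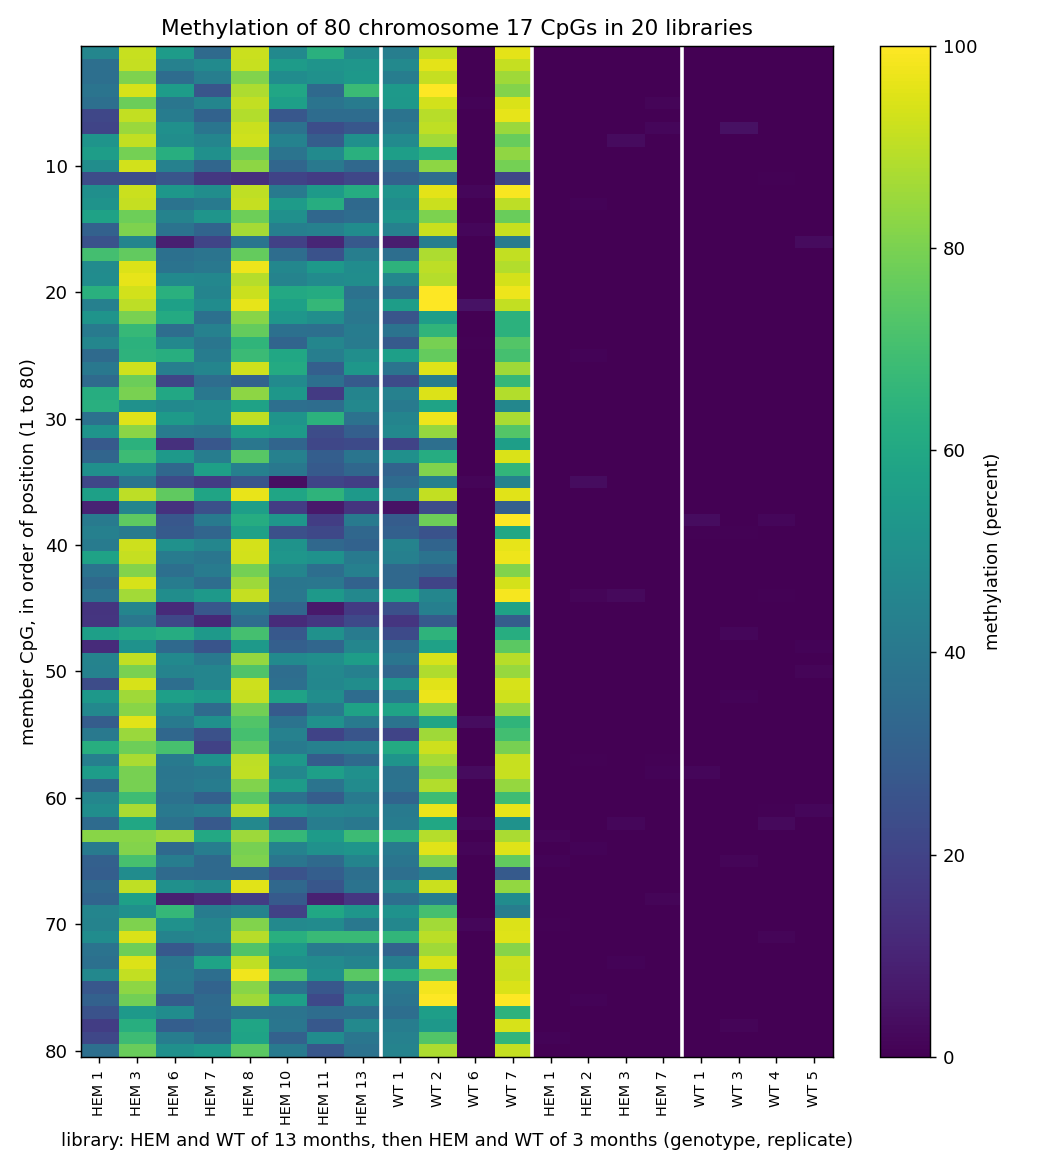
Methylation in percent (colour) of the 80 CpGs, in order of position from top to bottom, in the 20 libraries, with HEM and WT of 13 months left of HEM and WT of 3 months and white lines between the groups. HEM replicates 3 and 8 and WT replicates 2 and 7 form bright columns over nearly the whole length, WT replicate 6 is as dark as the 8 libraries of 3 months, and WT replicate 2 darkens over a short run near the middle.

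The 80 CpGs lay from 16354882 to 50799835 (mm10), a span of 34.4 Mb, on a chromosome whose listed CpGs ran from 3055082 to 94865090. The span is set by the first and last of the 80, so none can lie outside it. It held 29275 listed CpGs, with 5646 before it and 18005 after it. The median gap between neighbours was 143502 bp and the widest 2995422 bp. Of the 79 gaps 3 were of 1 bp, as between the strands of a CpG, 3 were of 2 to 100 bp, 6 of over 100 bp and up to 10 kb, and 13 above 1 Mb. In bins of 2 Mb, the count was highest 8 to 10 Mb from the first CpG, with 14 of 3618 listed CpGs. The bin 18 to 20 Mb from the first held 13 of 3689. Per listed CpG these bins were not the highest. The bin starting at 2 Mb held 3 of 94 and that starting at 32 Mb held 6 of 912, whereas that starting at 30 Mb held 3 of 3584. No run of 3 or more lay within 100 bp.

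Where the adjacent position was also listed at both ages, both positions met the rule, which was the case for 3 pairs. At 20985701 and 20985702, the second of which lay 8025 bp from the vomeronasal receptor gene Vmn1r233, WT replicates 1, 2, 6 and 7 were at 53.1%, 93.1%, 1.15% and 94.4% on 1 strand and at 38.2%, 89.4%, 0% and 96.2% on the other. At 35149265 and 35149266, in Prrc2a, which encodes an RNA-binding protein, WT libraries in the same order were at 38.2%, 59.0%, 3.12% and 65.4%, and at 20.6%, 85.7%, 0% and 69.6%. The third lay at 34096158 and 34096159, 924 bp from the antigen presentation gene H2-Oa. Thus 6 of 80 had an adjacent position listed at both ages, and 8 of 80 had one listed at 3 months; the 6 of 80 stand against 23.1% of all chromosome 17 CpGs listed at both ages.

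Most neighbours outside the set did not follow the step. A neighbour that met the rule counts as part of the set and not as a flanking CpG. This was so at the 3 gaps of 1 bp and the 3 of 2 to 100 bp given above. Within 100 bp of the 80 CpGs lay 223 other CpGs listed at both ages, around 76 of them. Their mean level had a median of 87.3% over the libraries of 13 months and 86.1% over those of 3 months, and the median change between ages was 1.13 points (quartiles -1.33 and 3.03), against 51.5 points at the 80 CpGs, whose change ranged from 20.6 to 68.7 points. Of the 223, 137 were above 80% at 3 months, 45 at 60% to 80%, 36 at 20% to 60% and 5 below 20%. By library, the median of the flanking CpGs was between 85.6% and 87.5% in HEM and between 86.6% and 88.5% in WT at 13 months, and between 84.4% and 86.7% in HEM and between 85.0% and 85.7% in WT at 3 months. WT replicate 6 was at 87.1%, within the range of the other libraries of its age.

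A change of more than 20 points was found at 4 of the 223 flanking CpGs, and in all 4 the level at 13 months was the lower. At 26437300, in the ubiquitin ligase gene Neurl1b and 46 bp from a CpG of the set, the mean was 71.5% at 13 months and 97.9% at 3 months. There HEM replicates 3 and 8 were at 80% and 38.5%, WT replicates 2 and 7 at 45.5% and 60%, and WT replicate 6 at 96.1%. The others were at 28006319 in Anks1, with means of 61.0% at 13 months and 82.0% at 3 months, and at 42885026 and 42885041, with 48.4% and 54.2% at 13 months and 73.9% and 77.8% at 3 months. In WT replicate 6 they were at 87.5%, 74.1% and 81.5%. HEM replicates 3 and 8 and WT replicates 2 and 7 were at 36.8%, 36.7%, 41.0% and 48.5% at 28006319. In the same order they were at 39.8%, 28.9%, 40.4% and 28.3% at 42885026 and at 40.2%, 32.5%, 42.1% and 34.0% at 42885041. At each of these sites they were lower than every other library of 13 months, which was not so at 26437300.

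Set against its own flanking CpGs, a CpG of the set was close to them in the libraries near 80 and at about 50% of them in those near 40. The median of that share was 98.0% in HEM replicate 3, 100% in HEM replicate 8, 95.7% in WT replicate 2 and 99.9% in WT replicate 7. In HEM replicates 1, 6, 7, 10, 11 and 13 it was 52.1%, 51.4%, 50.04%, 54.3%, 50.5% and 52.4%, in WT replicate 1 it was 49.0%, and in WT replicate 6 it was 0%. Of the 76 CpGs with flanking CpGs, 58 were within 15 points of them in HEM replicate 3, 56 in HEM replicate 8, 45 in WT replicate 2 and 55 in WT replicate 7. In the 7 libraries near 40 that number was 7 to 13. Across the 76 CpGs, Pearson's r between the CpG and its flanking CpGs in the same library was 0.736 in HEM replicate 3, 0.805 in HEM replicate 8 and 0.779 in WT replicate 7, 0.559 in WT replicate 2, 0.315 to 0.557 in the 6 HEM libraries near 40 0.408 in WT replicate 1 and -0.157 in WT replicate 6. Both values of a point come from the same library.

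**Figure D3:**
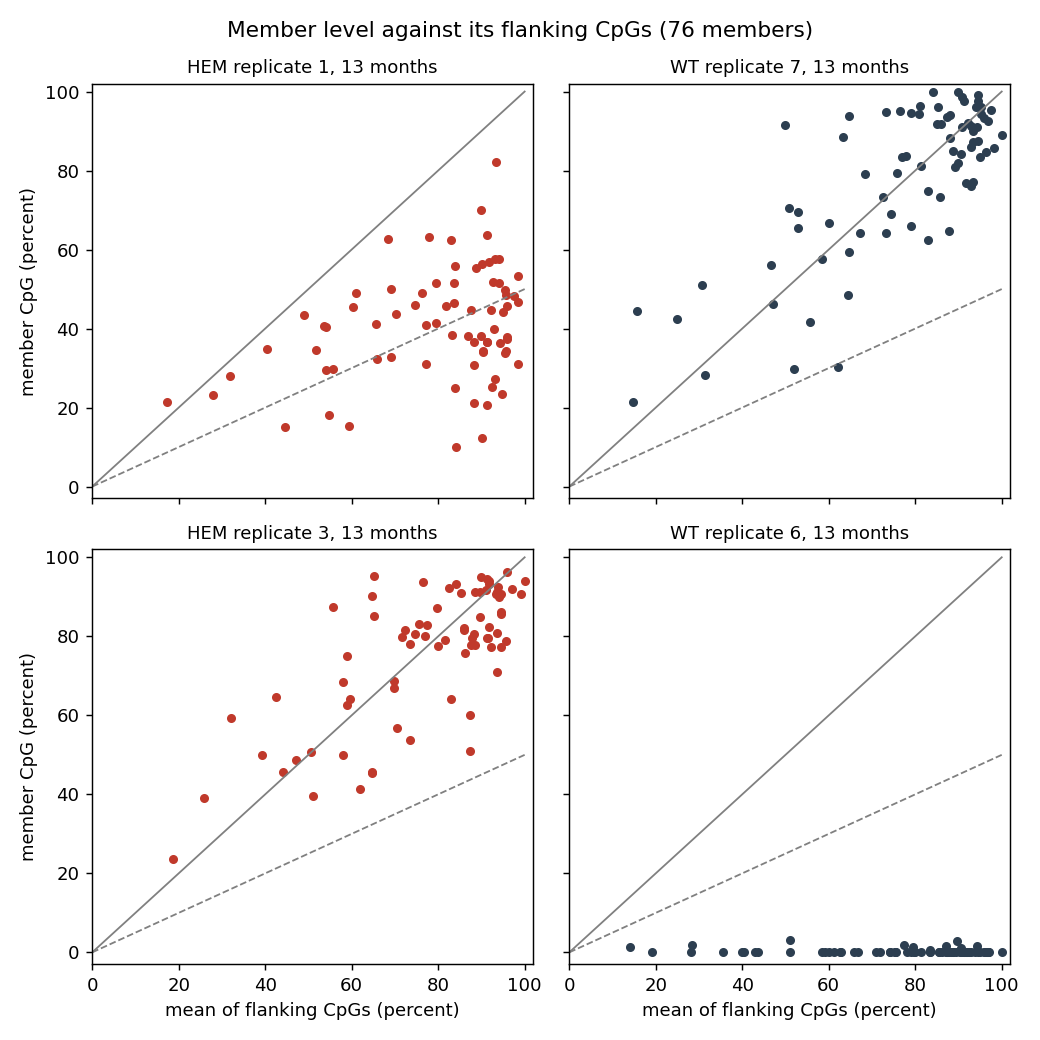
Level of each CpG of the set in percent (vertical axis) against the mean of its flanking CpGs within 100 bp (horizontal axis) for 76 CpGs in 4 libraries of 13 months, HEM replicates 1 and 3 on the left and WT replicates 7 and 6 on the right. The solid line marks equal levels and the dashed line 50% of the flanking level. Points gather around the solid line in HEM replicate 3 and WT replicate 7, around the dashed line in HEM replicate 1, and at 0 in WT replicate 6.

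Low CpGs among methylated neighbours were counted on every chromosome. On chromosome 17, 26325 CpGs were at most at 5% in all libraries of 3 months, and those outside the set had flanking CpGs at a median of 0.159% at 3 months, against 84.5% for the set. Flanking CpGs averaged at least 50% at 3 months for 68 of the 76 CpGs of the set with any, and for 13 of the 26171 other low CpGs of chromosome 17. Such isolated low CpGs numbered 81 on chromosome 17 and 2 to 22 on each of the other chromosomes. Within the span there were 75, of which 68 met the rule, and the other 7 were at most at 3.70% in every library of 13 months. On chromosome 17 there were also 1 before and 5 after the span, which by its definition takes in every CpG of the set. Of the 226 on other chromosomes 225 had a mean under 5% at 13 months, 1 had a mean of 5% to 20%, and none met the rule. These shares were not tested, since the rule fixed both levels of the set.

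**Figure D4:**
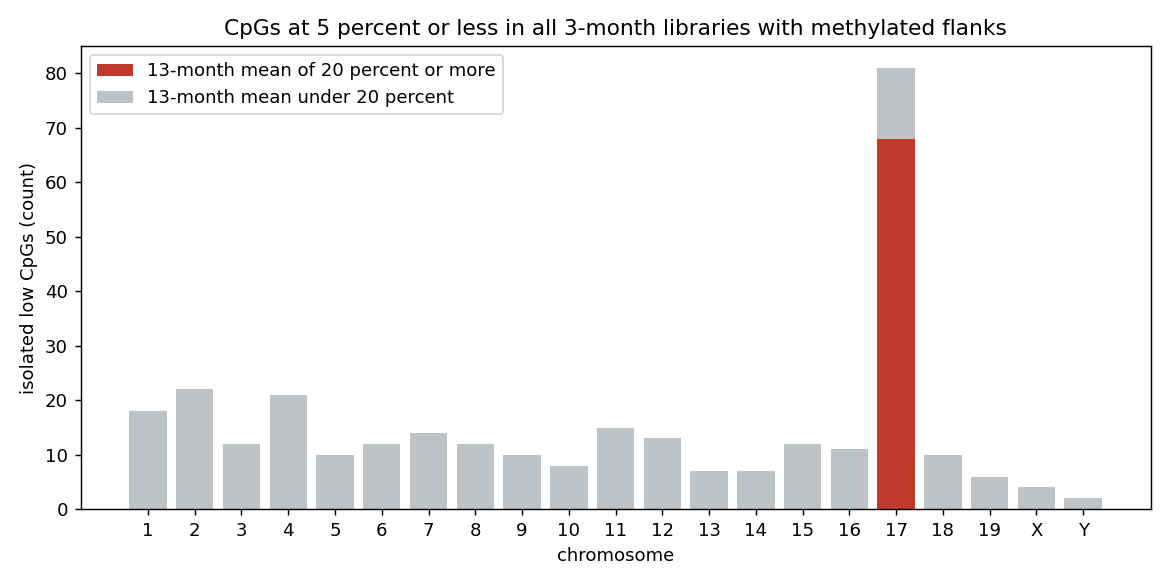
Number of CpGs per chromosome (vertical axis) that were at most at 5% in all 8 libraries of 3 months while their flanking CpGs averaged at least 50%, by chromosome (horizontal axis). Red marks those with a mean of at least 20% over the 12 libraries of 13 months. Chromosome 17 holds 81, of which 68 are red, and the other chromosomes hold 2 to 22 each, none red.

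The same thresholds were met on only 1 other chromosome, by 48 CpGs of chromosome 9 within 1.94 kb, from 123923604 to 123925547. None of those 48 was isolated among methylated CpGs in the sense above. Their medians put other libraries at the bottom and top: HEM replicate 10 was at 0%, HEM replicates 1 and 3 were at 33.9% and 34.5%, the other 5 HEM libraries at 65% to 75.1%, and WT replicates 1, 2, 6 and 7 at 69.5%, 73.9%, 65.8% and 49.3%. The difference between the chromosomes in the order of libraries was not tested.

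Along the chromosome WT replicate 2 changed class over a run of neighbours. Among the 59 CpGs above 60% in HEM replicates 3 and 8 and WT replicate 7, WT replicate 2 was also above 60% at all but 7. Of the 7, 5 were consecutive, from 29374972 to 31803125, a stretch of 2428 kb with 2212 listed CpGs. There WT replicate 2 was at 32.4%, 38.2%, 31.5%, 20.6% and 45.9%, and WT replicate 7 at 96.2%, 97.6%, 80.98%, 93.7% and 98.6%. These CpGs lay in Fgd2, an activator of the small GTPase Cdc42, in Gm36486, in Mdga1, a neuronal adhesion molecule that limits synapse formation, and in Dnah8, a dynein of sperm tails, and the last lay in no gene. The nearest CpGs of the 59 outside the run at which WT replicate 2 was again above 60% lay at 29136270, with 77.8%, and at 34582815 in Notch4, with 93.9%. Between these 2 also lay 5 CpGs of the set not counted among the 59, and WT replicate 2 was at 25.3% at 29322670 in Pi16, where WT replicate 7 was at 59.5%, and at 65.1% at 34096158. Flanking CpGs of the run, 22 in all, had a median of 93.9% in WT replicate 2. The remaining 2 CpGs were single, at 25477651 with 56.0% and at 35149265 with 59.0%.

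**Figure D5:**
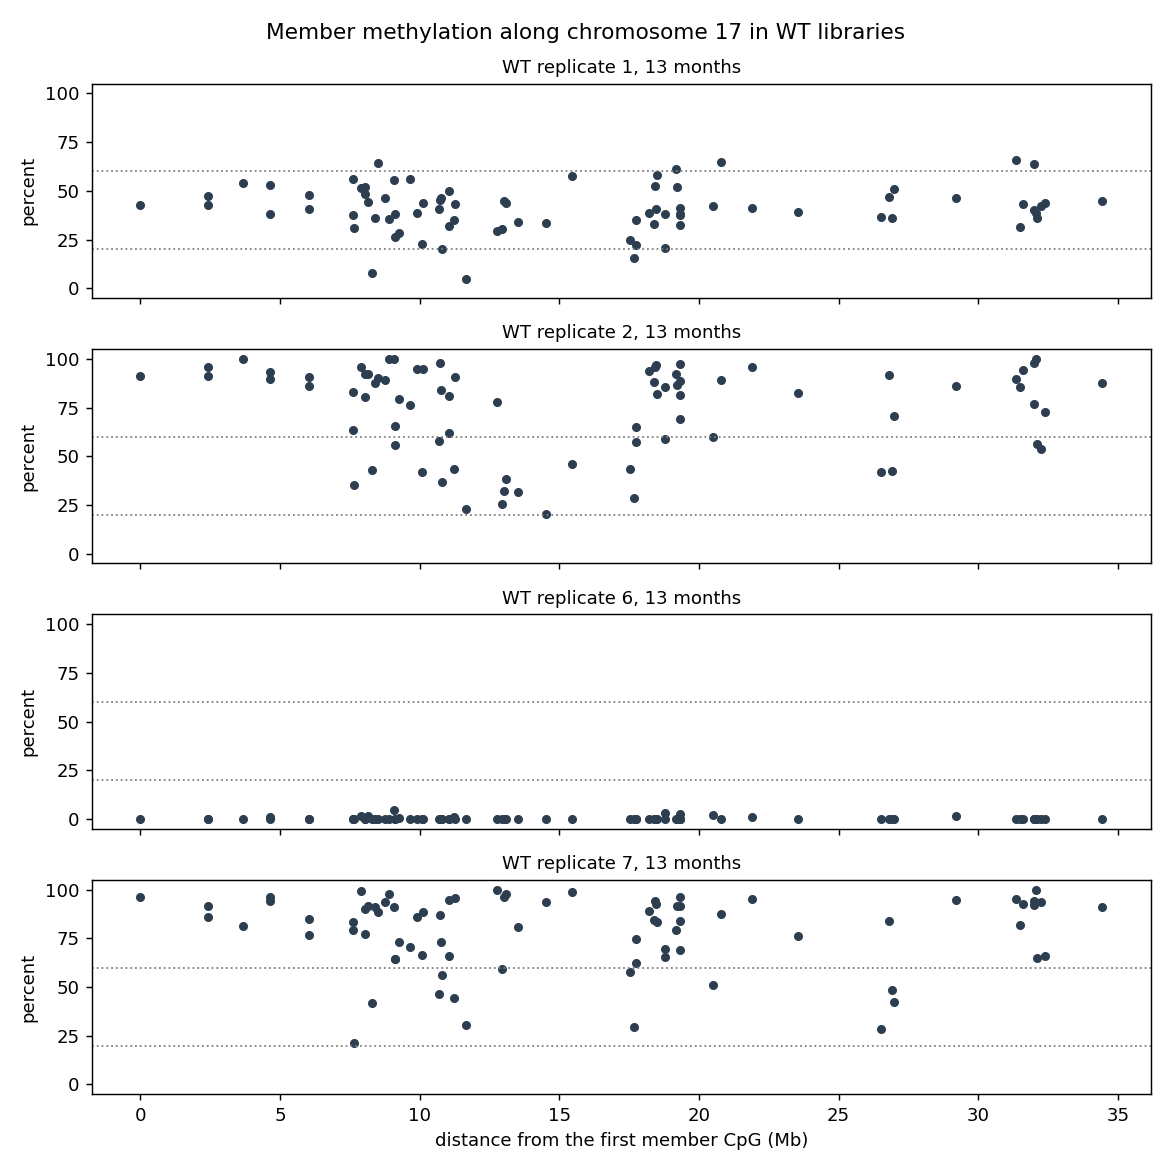
Methylation in percent (vertical axes) of the 80 CpGs by distance in Mb from the first (horizontal axis) in the 4 WT libraries of 13 months, with dotted lines at 20% and 60%. WT replicate 6 stays at 0% to 4.88% over the 34.4 Mb, WT replicate 1 stays mainly between the lines, WT replicate 7 mainly above them, and WT replicate 2 drops below 60% over a run that starts about 13 Mb from the first CpG.

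Not all 80 CpGs showed the classes equally well. In 33 every library of 13 months was in the class of its own median, and in 19 more a single library was not. Those with most libraries off their class were CpGs of low level. At 28006276 in Anks1, an ankyrin repeat adaptor, 10 libraries were off their class, with a lowest value of 6.67%, a median of 16.4% and a highest value of 56.0% in HEM, and 4.88%, 23.1%, 0% and 30.3% in WT replicates 1, 2, 6 and 7. At 34030528 in the zinc transporter gene Slc39a7 9 libraries were off, with 11.48%, 18.6% and 39.6% as the lowest, median and highest values in HEM and 15.3%, 28.4%, 0% and 29.7% in WT. At 24656764, at 43265889 and at 33900882 in Smim40 8 were off. A CpG at 24015622 was at 0% in WT replicate 6 and at low levels in the other libraries of 13 months, without separate levels near 40 and 80, at 13.9% to 26.3% in HEM and at 30.9%, 35.4%, 0% and 21.3% in WT, with its flanking CpG at 22.96% over the libraries of 13 months and 23.8% over those of 3 months.

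The CpGs with the highest means at 13 months also departed from the classes in part. At 37130953, in the olfactory receptor gene Olfr91, the mean over 12 libraries was 68.9%. HEM libraries there had a lowest value of 54.8%, a median of 75.3% and a highest value of 85.5%, and WT replicates 1, 2, 6 and 7 were at 64.7%, 89.1%, 0% and 87.4%. At 27608683 in Nudt3, a phosphatase of inositol pyrophosphates, the values were 53.9%, 61.8% and 96.6% in HEM and 43.1%, 90.8%, 0% and 95.4% in WT. The next were at 47705340, 1054 bp from the growth factor adaptor gene Frs3, with a mean of 64.4%, at 25437439 with 62.6%, and at 25243034 in Baiap3, a regulator of exocytosis, with 62.5%.

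Annotated genes held 48 of the 80 CpGs, and 42 lay in 36 different protein-coding genes, 6 in non-coding genes or pseudogenes alone and 32 in no gene. The share of all listed chromosome 17 CpGs that lie in genes is not given here, so these counts do not show whether the set differs from them. The gene table has no exons, so exonic and intronic positions were not told apart. The 38 outside coding genes lay a median of 8026 bp from the nearest one. Several genes held more than 1. Ddr1, a collagen receptor kinase found in oligodendrocytes (from 35681567 to 35704741), held 3: at 35682497 WT replicates 1, 2, 6 and 7 were at 38.1%, 88.5%, 0% and 84.1%, at 35682615 at 32.3%, 68.9%, 0% and 68.9%, and at 35688583 at 41.1%, 97.2%, 0% and 96.2%. HEM libraries had medians of 45.2%, 39.1% and 47.6% at these sites, with highest values of 81.2%, 74.5% and 89.7%.

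Abca3, a lipid transporter (from 24351921 to 24410204), held 2, at 24408684 and 24408737, with 34.2%, 53.1% and 91.4% and with 33.3%, 51.0% and 77.8% as the lowest, median and highest HEM values. WT replicates 1, 2, 6 and 7 were there at 48.5%, 92.1%, 0% and 90.1% and at 51.8%, 80.3%, 0% and 77.0%. Nudt3 and Prrc2a held 2 each, and the second in Nudt3, at 27587577, was low, with a HEM median of 21.2% and WT values of 34.8%, 43.2%, 1.29% and 44.5% among flanking CpGs at 16.7% over the libraries of 13 months. The first CpG of the span, at 16354882 in the lncRNA gene Gm41534, had HEM values from 34.6% to 92.2%, and the last, at 50799835 in Tbc1d5, a regulator of endosome recycling, from 26.6% to 77.3%. WT replicates 1, 2, 6 and 7 were at 42.9%, 90.9%, 0% and 96.0% at the first and at 44.8%, 87.5%, 0% and 91.1% at the last, so that WT replicate 6 was lowest and WT replicates 2 and 7 were high at both ends.

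The span takes in the major histocompatibility complex, whose genes present antigens, and the Trem cluster, whose receptors act on myeloid cells and platelets. Of 45 listed immune genes of chromosome 17, 44 lay in the span, 29 held a CpG listed at both ages, 15 held one that was low in all libraries of 3 months, and 1, Treml1, held CpGs of the set. No share over all genes is given, so that count shows neither an excess nor a lack among such genes. Treml1 encodes a TREM-like receptor of platelets. Its CpG at 48365406 had 36.1%, 60.6% and 97.8% as the lowest, median and highest HEM values and 63.8%, 76.9%, 0% and 92.0% in WT replicates 1, 2, 6 and 7, and its CpG at 48367012 had 27.3%, 38.8% and 83.1% in HEM and 40%, 98.0%, 0% and 94.4% in WT. The neighbouring Trem2, a lipid-sensing receptor of microglia, had 9 listed CpGs and none of the set, and their mean was 54.0% over the libraries of 13 months and 58.3% over those of 3 months. Genes such as H2-K1 and H2-Ab1, of antigen presentation, had 26 and 37 listed CpGs, all low at 3 months, with means of 0.217% and 0.418% at 13 months and of 0.0966% and 0.401% at 3 months.

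A second list, of 21 genes known from brain or from earlier results of these data, had 20 symbols in the gene table, 12 of them in the span. Of the 20, 16 held a low CpG and 3 held CpGs of the set: Baiap3, Nudt3 and Unc5cl. Because the list drew in part on these data and no share over all genes is given, that count does not show an excess in such genes. In Unc5cl, an UNC5-like signalling protein, the CpG at 48459794 had 25.3%, 37.3% and 53.8% as the lowest, median and highest HEM values and 36.0%, 56.2%, 0% and 64.7% in WT. Genes of the set outside these lists include Notch4, a receptor of vessels, at 34582815 with 38.8%, 93.9%, 0% and 89.1% in WT, Hsp90ab1, a chaperone, at 45569634 with 46.3%, 86.3%, 1.79% and 94.7%, and Itpr3, a calcium channel of the endoplasmic reticulum, at 27091120 with 45.3%, 97.6%, 0% and 87.1%. In HEM these had medians of 48.6%, 47.7% and 53.1%.

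The comparison of genotypes at 13 months did not enter the rule and was tested with limma over 453891 CpGs. None of the 80 CpGs was called (adjusted p under 0.05 and a difference of at least 10 points), against 4 of all CpGs tested, or 0.000881%. Without a minimum difference 0 of the 80 passed, against 14 of all CpGs tested, or 0.00308%. An unadjusted p under 0.05 was found for 0 of the 80 and for 5.82% of all CpGs tested, and the smallest limma adjusted p was 0.863. Without WT replicate 6 an unadjusted p under 0.05 was found for 14 of the 80, all lower in HEM, or 17.5% against 7.53% of all CpGs tested, and without WT replicate 7 for 10, all higher in HEM, or 12.5% against 6.81%. The 80 CpGs shared mainly 1 level per library, so their counts are not 80 separate observations. In percentage points the difference of HEM from WT had a median of 0.269 over the 80 CpGs, 42 of which were higher and 38 lower in HEM, and of -0.100 over all CpGs tested. On the log2 scale that limma tested, 70 were higher and 10 lower in HEM, with a median of 0.72 over the 80 and of -0.02 over all CpGs tested, so the split depended on the scale. The CpG of smallest p, at 25477651, had a mean of 56.7% ± 16.9 (SD, n = 8) among HEM libraries, against 36.7% ± 29.4 (SD, n = 4) among WT libraries, and a log2 difference of 2.18 with a standard error of 1.07 (limma adjusted p = 0.863). The next, at 34096158, had 52.9% ± 13.2 among HEM libraries, against 37.5% ± 31.7 among WT libraries (limma adjusted p = 0.884). Among CpGs lower in HEM those of smallest p, at 48459794 and 24015622, differed by -0.141 and -1.61 points (limma adjusted p = 0.941 and 0.946) and had the opposite sign on the log2 scale.

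The medians over the 80 CpGs had a mean of 51.0% ± 18.3 (SD, n = 8) among HEM libraries, against 52.3% ± 40.4 (SD, n = 4) among WT libraries, a difference of -1.35 points that lay within the spread of either group. Without WT replicate 6 it was -18.8 points and without WT replicate 7 it was 9.47 points. Of the 223 flanking CpGs 198 passed the filter on the mean, 0 were called and 4 (2.02%) had an unadjusted p under 0.05 (limma). At 3 months the 80 CpGs lay below the filter in every library, so genotypes were not tested there.

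The thresholds did not fall in a wide gap between levels. Just inside the floor of 20% were those at 34030528, 28006276 and 24015622, with means of 20.6%, 20.7% and 20.8% at 13 months. Just outside were CpGs at 47523504 in the cyclin gene Ccnd3, at 30732747 in Dnah8 and at 34564437 in Notch4, with means of 18.3%, 18.2% and 14.7%, each at 0% in WT replicate 6. Just inside the ceiling of 5% were those at 22394468, 27587577 and 29136270, whose highest values at 3 months were 4.35%, 3.47% and 3.14%. Just outside were CpGs at 27129484 in Uqcc2, at 33313378 and at 28226053 in Def6, with highest values of 6.76%, 7.58% and 12.6% at 3 months, and the CpG in Def6 was at 44.0% in WT replicate 6.

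Few other CpGs of chromosome 17 had levels like the medians of the set over the 12 libraries of 13 months. A mean absolute difference under 15 points was found for 14 of 52846, 9 of them in the span. Among the 80 themselves the median difference was 8.93 points. Those medians are their own, so their closeness is in part built in. The closest was the CpG at 33313378, at 5.49 points, which failed the ceiling, with a highest value of 7.58% at 3 months. It was at 88.9% and 92.9% in HEM replicates 3 and 8 and at 50%, 86.2%, 0% and 87.0% in WT replicates 1, 2, 6 and 7. The next were at 35552156, which lies in the printed Cdsn window, at 33965964 in Vps52, at 34771470 and at 27129484, at 11.6, 12.8, 12.8 and 12.9 points. The first 3 of these had means of 35.02% to 46.9% at 3 months. In WT replicate 6, where the set was at a median of 0%, they were at 44.2%, 44.8% and 12.8%. No chromosome 17 CpG showed the mirror image, at least 95% in all 8 libraries of 3 months and a mean of at most 80% at 13 months. Only 219 met the first condition, against 26325 at most at 5% in all 8 libraries, so this absence carries little weight. The CpG at 26437300 came near, with means of 97.9% at 3 months and 71.5% at 13 months. It failed because HEM replicate 7 of 3 months was at 89.5%.

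As measures of the libraries as a whole, the mean over all listed CpGs of chromosome 17 was 29.4% to 32.1% in HEM and 30.8% to 31.5% in WT at 13 months, and 30.6% to 30.9% in HEM and 30.3% to 31.4% in WT at 3 months. Gene regions of microglia markers had means of 44.8% to 57.7% in HEM and 47.0% to 58.8% in WT at 13 months, and of 52.2% to 60.1% in HEM and 51.7% to 57.0% in WT at 3 months. Those of neuron markers were at 21.7% to 23.7% in HEM and 21.2% to 22.9% in WT at 13 months, and at 21.2% to 21.6% in HEM and 21.2% to 22.3% in WT at 3 months. The marker means used all CpGs listed at the age in question, 1151247 at 13 months and 1234494 at 3 months. The CpGs behind them can thus differ between ages, and the ages are not compared. Methylation of a gene does not show whether its cells are present, and the part of cell makeup in the levels of the set was not tested.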

How the data were processed

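The authors deposited 1 file a library with a percent methylation per CpG and without read counts. Bowtie2, methylKit and the mm10 build are named, without versions, in the submitters' processing notes, and the settings are not given in the sources used here. Files were joined by position with Python 3.11.15 and pandas 2.3.3, and adjacent positions were kept apart. The pooled table of 13 months was not used; 1 of its value columns matched no library. No 2 libraries were duplicates, the smallest mean absolute difference being 3.41 points.

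Genotypes at 13 months were compared with limma (version 3.58.1, R 4.3.3). Percentages plus an offset of 1 were turned into the log2 ratio of methylated to unmethylated, over CpGs averaging 5% to 95%, with Benjamini-Hochberg adjustment over all of them. The method was tested on simulated data in which each CpG varied independently. CpGs that share a level within a library were not imitated, so that test does not bear on the set. Gene positions came from RefSeq (GRCm38.p6), and marker regions reached 1000 bp beyond each gene and needed 3 or more CpGs. The CpGs described, the gene lists and the class bounds were chosen with earlier results of these data known. Named CpGs were those at the ends of the span, with the 5 highest and 5 lowest means, in genes with 2 or more, off their class in most libraries, of smallest p, next to a threshold, or in listed genes; those in the run of WT replicate 2, the strand pairs, the flanking CpGs and Notch4, Hsp90ab1 and Itpr3 were chosen after their values were seen. Replicate numbers shared by HEM and WT (1, 6 and 7) gave no sign of pairing. Correlations of deviations from the group means were 0.0118 to 0.102 for the 3 pairs and -0.163 to 0.148 for the other pairs of a HEM and a WT library. So few pairs cannot show that no pairing exists.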

Additional observations from a re-analysis of the deposited data

How the results depend on the processing

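The rule kept 78 to 81 CpGs when each of the 20 libraries was left out in turn, 77 with positions 1 bp apart merged, and 73 to 83 with a ceiling of 2% or 10% or a floor of 10% or 30%. With a ceiling of 0% it kept 44. Counts per level class stayed within 1.5 times under both other pairs of bounds and with strands merged. No CpG of the set was called between genotypes by limma under any of 7 settings or with any 1 library left out. An unadjusted p under 0.05 was found for 0 or 1 of the 80 under these 7 settings and for 4 without WT replicate 2, besides the omissions of WT replicates 6 and 7 given above. Over all CpGs the count of 4 was 0 on the percent scale, 0 with an offset of 5, 13 with an offset of 0.5 and 14 with no minimum difference. It was 2 with a mean-variance trend and 0 with the replicate block, whose numbers gave no sign of pairing. Leaving out each library in turn gave 3 to 45, with 45 without WT replicate 1, 20 without WT replicate 2, 29 without WT replicate 6 and 25 without WT replicate 7, and also moved without HEM replicates 6 (7 calls) and 7 (8 calls); the cause was not tested. The median difference of HEM from WT spanned -18.8 to 9.47 points over the same omissions and was 0.989 points with means in place of medians. The median change at flanking CpGs spanned 0.937 to 1.40 points with single libraries omitted and 0.724 to 1.34 points with other flank widths. Since the files give no depth, the sampling error of single percentages is unknown.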
